A study of Mus musculus with 8 samples.

Results

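Antioxidant genes under the transcription factor Nrf2 were followed in 2 mouse cell lines carrying PGC7, as a list of 10 genes: Nfe2l2, which codes for Nrf2, and Srxn1, Hmox1, Nqo1, Gclm, Gclc, Txnrd1, Osgin1, Gstm1 and Prdx1. The members were all probe sets annotated to a single one of these symbols, in all 8 arrays. There were 20 such probe sets, for 9 of the 10 genes, among 45101 on the array, of which 34958 had 1 gene symbol, covering 18194 genes. Prdx1 had none: its 5 probe sets carry the symbols of both Prdx1 and the pseudogene Gm21399, so they are given apart and enter no count. All 20 member probe sets passed the filter on low signals. The list was chosen with earlier results of these data known. Shares over all tested probe sets are therefore given beside its counts only as a reference.

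Total RNA of NIH3T3, a mouse embryonic fibroblast line, and of B16F10, a mouse melanoma line, was hybridized to Affymetrix expression arrays, 1 array a sample. With PGC7 there were 3 NIH3T3 arrays, of clones 1 and 2 and of an uncloned population, against 1 NIH3T3 control array. Of B16F10 there were 3 arrays of PGC7 clones 1, 2 and 3, against 1 control array. PGC7, also called Stella or Dppa3, is a maternal and germ cell protein, overexpressed here from a virus. The genotype field of the 6 PGC7 samples names PGC8 and calls all of them not yet cloned, so titles gave the groups. The labels do not say if an empty virus was given to the controls. The series' design calls the clones independent and the uncloned population a mixture of NIH3T3 clones. Whether they came from separate infections is not stated, so the p-values reflect only how far these samples spread, and each lone control is taken to have the spread of the PGC7 arrays. The lines may also be separate array batches, and these cannot be told apart.

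Signals are in arbitrary units, after each array was scaled to a 2% trimmed mean of 500. Changes are differences in log2(signal + 9), PGC7 minus control, which understates the change of low signals, and a probe set was called at an adjusted p under 0.05 in a limma model over 25236 tested probe sets. By summed markers the lines stayed apart on the arrays: the summed signal of 8 melanocyte markers was 125580 to 144880 in B16F10 PGC7 and 111110 in its control, against 641 to 790 in NIH3T3 PGC7 and 880 in its control. The sum of 8 fibroblast markers was 79254 to 87947 in NIH3T3 PGC7 and 118040 in its control, with 2 of the 8 called lower there, against 554 to 855 in B16F10 PGC7 and 660 in its control. The 2 were Col1a1, at 367, 503 and 703 in NIH3T3 clones 1 and 2 and the uncloned population against 23293, and Lum, at 40.9, 15.2 and 52.5 against 262. The other fibroblast markers were not called and did not go one way. Dcn (0.41) and Col3a1 (0.12) lay above the control on all 3 arrays, and Col1a2, Pdgfrb and Thy1 below it. Pdgfra lay on both sides. The part of these marker differences in the NIH3T3 results was not tested. The sums of macrophage, epithelial and endothelial markers stayed at 520 or below on every array. Dppa3 (1424295_at) was not called in either line, with 29.7, 55.4 and 101 in NIH3T3 clones 1 and 2 and the uncloned population against 69.8 in the control, and 70.0, 117 and 71.0 in B16F10 clones 1, 2 and 3 against 23.5. No source says if this probe set can read the transferred copy, so it checks no label.

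Nrf2 is held in the cytoplasm and marked for destruction by Keap1, and oxidants or electrophiles that modify Keap1 let it accumulate and enter the nucleus. There it pairs with small Maf proteins on antioxidant response elements and raises genes for glutathione synthesis, thioredoxin and peroxiredoxin recycling, quinone reduction and haem breakdown, while Bach1 competes for the same elements. Nrf2 is controlled mainly at the protein level, which arrays do not measure. Its own mRNA and those of its targets are what is described here.

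The promoter windows of 4 genes are shown because the core of the antioxidant response element, TGACNNNGC searched on both strands, was found in each of them: they are those of the regulator, sulfiredoxin, thioredoxin reductase and 1 glutathione synthesis gene. Windows run from 250 bases before to 50 bases after the RefSeq start site on build GRCm38.p6, written in the direction of the gene, and the capitals mark the motif. For Txnrd1 the window shown is the only one of its 3 with a match.
Nfe2l2 promoter, chr2:75704614-75704913, minus strand: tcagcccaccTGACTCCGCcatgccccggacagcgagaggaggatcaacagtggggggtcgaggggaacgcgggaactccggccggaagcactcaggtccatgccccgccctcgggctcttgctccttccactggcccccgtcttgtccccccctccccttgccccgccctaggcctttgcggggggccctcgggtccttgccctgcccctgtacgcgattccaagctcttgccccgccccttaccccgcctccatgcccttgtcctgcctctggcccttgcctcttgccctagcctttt
Srxn1 promoter, chr2:152105274-152105573, plus strand: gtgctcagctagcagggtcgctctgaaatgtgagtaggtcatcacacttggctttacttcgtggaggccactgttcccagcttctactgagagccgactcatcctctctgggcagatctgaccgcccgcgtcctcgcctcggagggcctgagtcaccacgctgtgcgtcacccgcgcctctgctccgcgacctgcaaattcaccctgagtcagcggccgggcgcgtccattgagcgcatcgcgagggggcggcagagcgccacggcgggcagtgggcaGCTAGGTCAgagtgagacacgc
Txnrd1 promoter, chr10:82858956-82859255, plus strand: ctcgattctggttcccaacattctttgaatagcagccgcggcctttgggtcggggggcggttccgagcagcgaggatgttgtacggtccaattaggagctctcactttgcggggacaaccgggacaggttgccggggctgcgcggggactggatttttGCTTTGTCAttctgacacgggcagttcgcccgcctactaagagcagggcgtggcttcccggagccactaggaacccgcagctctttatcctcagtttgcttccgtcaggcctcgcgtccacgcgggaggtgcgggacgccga
Gclm promoter, chr3:122245307-122245606, plus strand: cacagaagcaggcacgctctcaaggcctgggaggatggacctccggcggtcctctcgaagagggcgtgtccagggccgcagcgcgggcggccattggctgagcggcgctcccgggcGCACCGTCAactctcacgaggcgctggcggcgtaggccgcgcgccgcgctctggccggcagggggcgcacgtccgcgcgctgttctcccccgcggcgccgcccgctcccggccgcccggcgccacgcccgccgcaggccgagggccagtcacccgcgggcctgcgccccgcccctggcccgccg

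The match began 240 bases before the start site in Nfe2l2, 28 bases after it in Srxn1, 92 bases before it in Txnrd1 and 134 bases before it in Gclm. Prdx1 also held a match, 133 bases before its start site. Of the 10 genes, 8 had a window and 5 of these held the motif, whereas 12.4% of all 32851 windows and 14.0% of 27025 genes did. The windows of Nqo1, Osgin1 and Gstm1 did not hold these letters. Hmox1 and Gclc are named only. A match describes letters in a short window and is not evidence of binding.

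**Figure D1:**
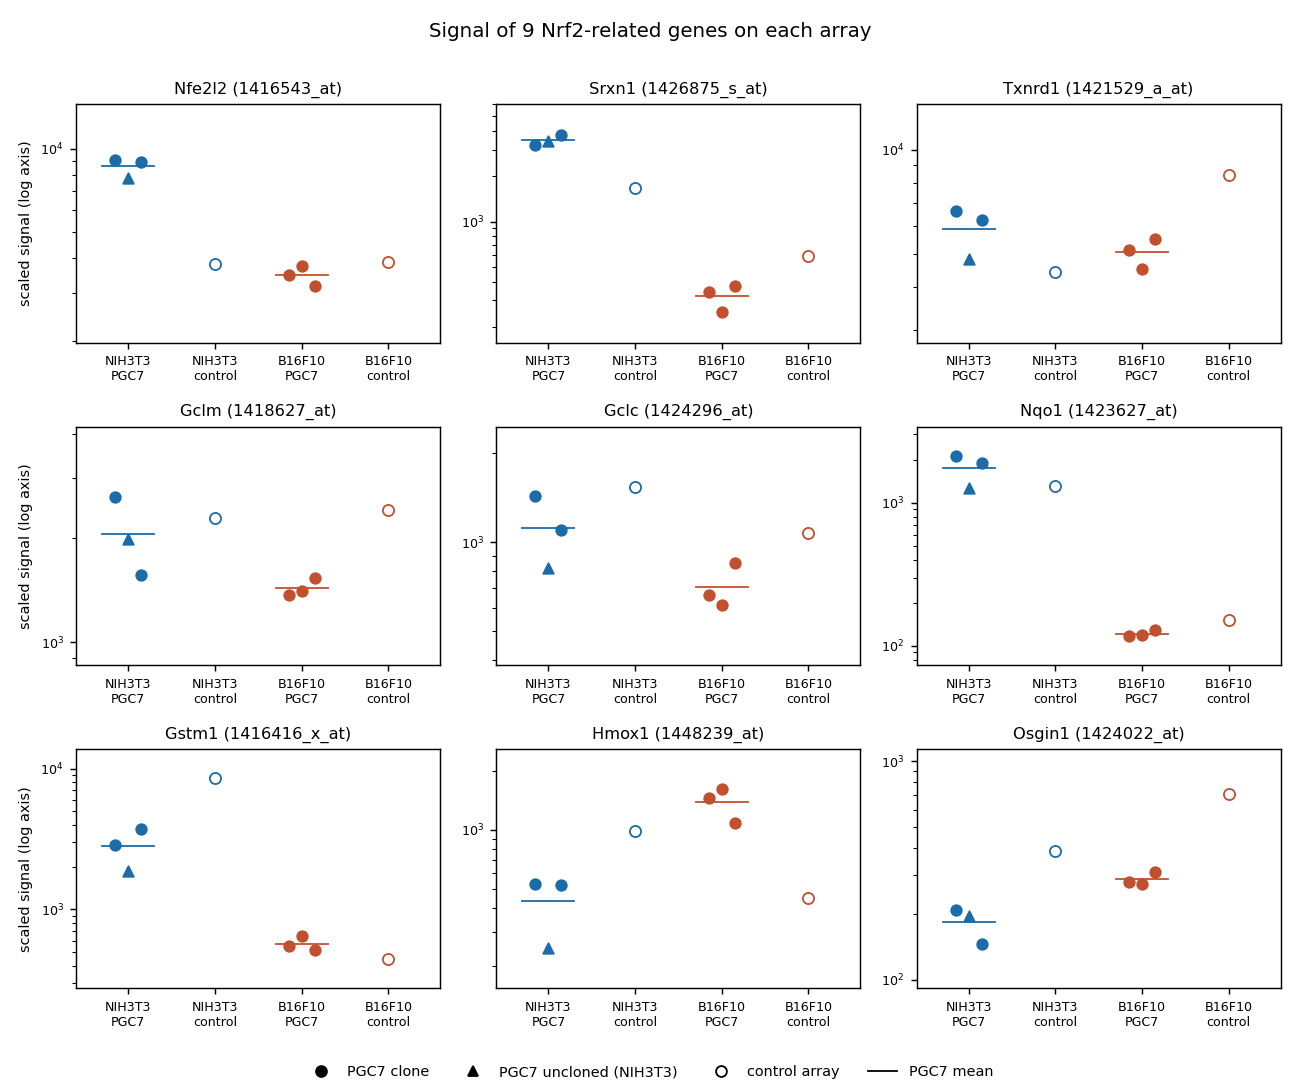
Scaled signal (arbitrary units, log axis) of the brightest probe set of 9 genes on each of the 8 arrays; filled symbols are PGC7 arrays, with a triangle for the uncloned NIH3T3 population, open circles are the controls and lines are PGC7 means. Nfe2l2 and Srxn1 lie above the control on all 3 NIH3T3 PGC7 arrays and below it on all 3 in B16F10, and Hmox1 shows the opposite.

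In NIH3T3, the transcript for Nrf2 itself was more abundant with PGC7, and so was that of the peroxiredoxin-repairing enzyme sulfiredoxin, Srxn1, while the glutathione transferase gene Gstm1 and the growth inhibitor gene Osgin1 were less abundant. The glutathione synthesis genes Gclm and Gclc, the quinone reductase gene Nqo1, the thioredoxin reductase gene Txnrd1 and the haem oxygenase gene Hmox1 were not called. By the brightest probe set of each gene, 2 of 9 genes rose and 2 fell, and 5 were not called. By probe sets, 5 of 20 rose and 3 fell, where 12.8% of all tested probe sets were called, 6.47% higher and 6.32% lower. With the values as deposited, 2 of 19 tested member probe sets rose, both of Nfe2l2, and 4 fell, of Gstm1, Osgin1 and Hmox1, and 36.7% of all calls were higher, against 50.6% after scaling. On all 3 PGC7 arrays 7 of 20 lay above the control, beside 28.9% of all tested probe sets, and 9 of 20 below it, beside 38.3%. The median log2 change of the 20 was -0.09, beside -0.07 over all tested probe sets. In bulk RNA, fewer cells with a transcript and less of it per cell cannot be told apart.

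Nfe2l2 (1416543_at) had signals of 9048, 8928 and 7851 in clone 1, clone 2 and the uncloned population, against 3823 in the control. All 3 PGC7 arrays lay above the control and near each other, averaging 8609 ± 659 (SD, n = 3), 2.25 times the control. On the log2 scale the rise was 1.17 ± 0.13 (SE here and below, adjusted p = 0.00118). The second probe set, 1457117_at, had 97.3, 57.1 and 70.1 against 9.80 in the control, a change of 2.13 ± 0.40 (adjusted p = 0.0109). Both probe sets of the gene thus rose, the second over a control signal below the filter threshold of 49.3, and with the NIH3T3 arrays alone the second was not called (adjusted p = 0.0735).

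Srxn1 codes for sulfiredoxin, which reduces overoxidized peroxiredoxins. Its brightest probe set, 1426875_s_at, had 3226, 3761 and 3448 in clone 1, clone 2 and the uncloned population and 1671 in the control, so that all 3 lay above it, at 2.08 times its signal on average. The change was 1.05 ± 0.22 (adjusted p = 0.0165). Probe sets 1425351_at and 1451680_at rose as well, by 1.28 ± 0.26 (adjusted p = 0.0162) and 0.94 ± 0.24 (adjusted p = 0.0391). The fourth, 1419942_at, disagreed with them: it had 78.3, 34.1 and 51.4 against 99.4 in the control, a change of -0.83 (adjusted p = 0.339). With the values as deposited, none of the 3 rises was called (adjusted p = 0.0625 to 0.133), and averaging the 4 probe sets gave 0.61 (adjusted p = 0.0609).

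Gstm1 codes for a mu-class glutathione transferase, which conjugates electrophiles to glutathione. Probe set 1448330_at had 2567, 2654 and 1638 in clone 1, clone 2 and the uncloned population against 7238 in the control. Every PGC7 array was far below the control, the mean of 2286 ± 563 (SD, n = 3) lying 3.17-fold under it, and the change was -1.69 ± 0.25 (adjusted p = 0.00417). The brightest, 1416416_x_at, had 2853, 3712 and 1878 against 8554 and fell by 1.66 on the log2 scale (-1.66 ± 0.32, adjusted p = 0.012). The other two had -1.18 and -1.49 and were not called (adjusted p = 0.159 and 0.0723). With the NIH3T3 arrays alone the fall of 1416416_x_at was not called (adjusted p = 0.0673) and that of 1448330_at was. Gstm1 has close relatives, and probe sets ending in _x_at can bind their transcripts too.

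Osgin1, an oxidative stress-induced growth inhibitor gene, had 209, 146 and 194 in clone 1, clone 2 and the uncloned population against 386 in the control. The PGC7 arrays were all below it and averaged 183 ± 33.0, with a change of -1.06 ± 0.25 (adjusted p = 0.0303). This call was lost in 5 of 17 alternatives, among them the NIH3T3 arrays alone (adjusted p = 0.156) and the scaling on poly-A spikes (-0.70, adjusted p = 0.153).

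Hmox1 codes for the inducible haem oxygenase, which opens the haem ring to give biliverdin, iron and carbon monoxide. It had 531, 525 and 248 in clone 1, clone 2 and the uncloned population against 983 in the control. All 3 were lower, the uncloned population most, and the change of -1.24 ± 0.41 was not called (adjusted p = 0.0821). Without the uncloned array it was -0.89 and called (adjusted p = 0.0179), as it was with the deposited values (-1.33, adjusted p = 0.0349).

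For Nqo1 and Txnrd1 the uncloned population stood apart from the clones. Nqo1, the NAD(P)H quinone reductase gene, had 2118 and 1897 in clones 1 and 2 and 1269 in the uncloned population, against 1316 in the control (0.39 ± 0.28, adjusted p = 0.407). Txnrd1, the cytosolic thioredoxin reductase gene, had 6663, 6252 and 4828 against 4423 at 1421529_a_at (0.41 ± 0.19, adjusted p = 0.194). At these probe sets both clones thus lay above the control, while the uncloned population was nearer to it, just below for Nqo1 and just above for Txnrd1. Txnrd1 1424487_x_at had 413, 309 and 188 against 267 (0.11), with the uncloned population below the control, and 1424486_a_at had 1524, 1583 and 1332 against 1104 (0.42). Neither was called. Without the uncloned array Nqo1 (0.60, adjusted p = 0.0382) and Txnrd1 1421529_a_at (0.54, adjusted p = 0.0148) were called higher. That fit called 6133 of all tested probe sets, against 3229 with all arrays.

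Gclm and Gclc code for the modifier and catalytic subunits of glutamate-cysteine ligase, the first step of glutathione synthesis. Gclm (1418627_at) had 2630, 1563 and 1985 against 2297 in the control, the PGC7 arrays lying on both sides of it (-0.19 ± 0.24, adjusted p = 0.661). Gclc (1424296_at) had 1440, 1100 and 815 against 1539, all below it, and its change of -0.50 ± 0.30 was not called either (adjusted p = 0.316). The second probe sets of the genes had 0.01 for Gclm and -0.64 for Gclc, both uncalled.

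**Figure D2:**
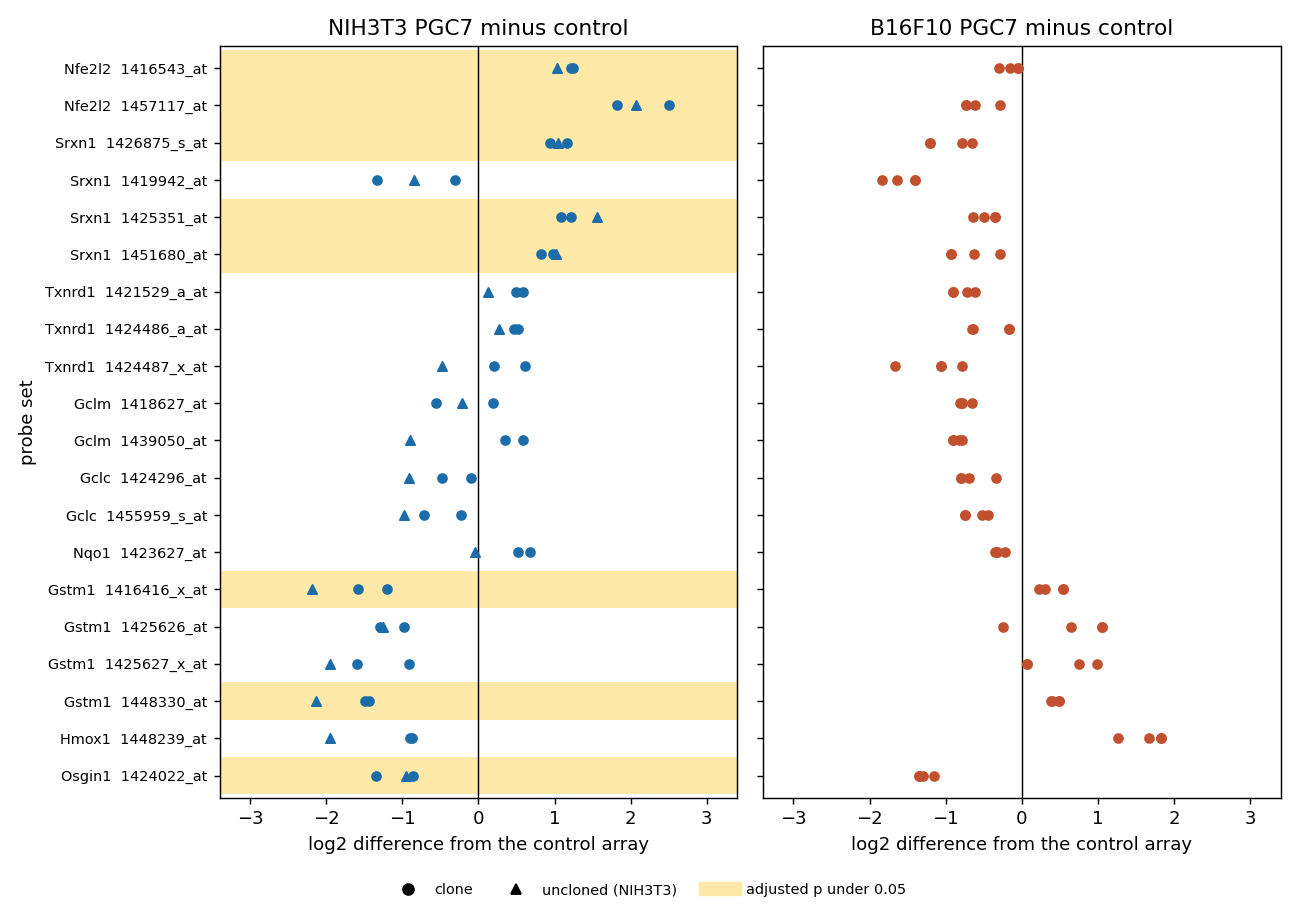
Log2 difference of each PGC7 array from the control of its line, for the 20 member probe sets; circles are clones, triangles the uncloned NIH3T3 population, and shaded rows were called (adjusted p under 0.05). In NIH3T3, 8 rows are shaded, 5 to the right of 0 and 3 to the left, and in B16F10 none are, although 15 probe sets lie left of 0 on all 3 arrays.

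In B16F10, 7 of the 9 genes read below the control in every PGC7 clone and Hmox1 and most Gstm1 probe sets read above it, but 0 of 20 probe sets were called by limma. Of all tested probe sets 1.19% were called, 0.923% higher and 0.265% lower. At an unadjusted p under 0.05 there were 8, with 1 higher and 7 lower, where 15.1% of all tested probe sets passed. On all 3 clone arrays, 15 of 20 probe sets were below the control, and 4 of 20 above it, where 32.2% of all tested probe sets were below and 37.0% above. The median log2 change of the 20 was -0.56, beside 0.02 over all tested probe sets. Several probe sets read the same gene, so these 15 are not separate observations: they stand for 7 of the 9 genes, with Gstm1 and Hmox1 on the other side. The poly-A spikes were 0.41 to 0.61 log2 units above the control in the clones, and with scaling on them the count below was 17, where 71.8% of all probe sets were below.

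Hmox1 had 1447, 1089 and 1609 in clones 1, 2 and 3 against 446 in the control. Every clone was above it, at 3.10 times its signal on average, and the change was 1.59 ± 0.41 (adjusted p = 0.110). With the 4 B16F10 arrays alone it was called (adjusted p = 0.00951), as it was when the uncloned NIH3T3 population was left out of the shared spread (adjusted p = 0.00531). That fit called 5 of the 20 members in B16F10 and 1835 of all probe sets, against 300 with all arrays.

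Osgin1 had 281, 312 and 273 in clones 1, 2 and 3 against 707 in the control, so the clones lay close together and 2.45-fold below it. The change was -1.27 ± 0.25 (adjusted p = 0.0603), and it was called in 6 of 17 alternatives, with the B16F10 arrays alone at an adjusted p of 0.00966. Across both lines, with line as a term, Osgin1 had -1.16 (adjusted p = 0.0593). In that comparison 0 of 20 member probe sets were called by limma, 5 had an unadjusted p under 0.05, all lower, where 17.9% of all tested probe sets passed, and 0.155% of all tested probe sets were called, 0.127% higher and 0.0277% lower.

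Txnrd1 (1421529_a_at) had 5137, 5532 and 4505 in clones 1, 2 and 3 and 8457 in the control, a change of -0.75 ± 0.19 (adjusted p = 0.106). Gclm (1418627_at) had 1370, 1536 and 1404 against 2416, a change of -0.75 ± 0.24 (adjusted p = 0.191). The clones were below the control in each case and differed little among themselves. With the B16F10 arrays alone both were called (adjusted p = 0.0163 for Txnrd1 and 0.0116 for Gclm), together with Osgin1 and Hmox1, and 2196 of all probe sets were called in that fit.

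Gclc (1424296_at) had 662, 848 and 612 in clones 1, 2 and 3 against 1071 in the control (-0.61 ± 0.30, adjusted p = 0.385), and its second probe set had -0.57. Srxn1 (1426875_s_at) had 339, 372 and 251 against 592 (-0.89 ± 0.22, adjusted p = 0.101), and its other probe sets had -0.49, -0.61 and -1.63. All 4 Srxn1 and both Gclc probe sets were below the control on every clone array. Nqo1 had 117, 130 and 119 against 152 (-0.30 ± 0.28, adjusted p = 0.677). Nfe2l2 (1416543_at) had 3490, 3163 and 3747 against 3888 (-0.17 ± 0.13, adjusted p = 0.614), the smallest difference among the brightest probe sets. Its second probe set, 1457117_at, had 99.2, 126 and 90.0 against 156 (-0.55 ± 0.40, adjusted p = 0.58). Gstm1 (1448330_at) had 462, 465 and 496 against 351, above the control in all 3 clones (0.42 ± 0.25, adjusted p = 0.484), with a change of -0.11 under the spike scaling.

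The 5 probe sets shared by Prdx1, an abundant peroxiredoxin gene, and Gm21399 cannot separate the gene from the pseudogene. In NIH3T3, 1436691_x_at had 34929, 32106 and 26969 against 24360 in the control, and the 5 had changes of 0.19 to 0.48, none called. In B16F10, 1437014_x_at had 3241, 2531 and 3121 in clones 1, 2 and 3 against 5697 and fell by 0.95 on the log2 scale (-0.95 ± 0.17, adjusted p = 0.0453), while the other 4 had -0.10 to 0.12. The probe sets of the pair therefore disagreed in B16F10.

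Whether PGC7 arrays departed from their control differently in the 2 lines was tested directly, as the NIH3T3 change minus the B16F10 change. The test called 9 of 20 probe sets, for 5 of 9 genes, where 6.88% of all tested probe sets were called. Several of the 9 read the same gene, and all rest on 1 control array a line. The difference was positive, meaning a more positive change in NIH3T3, for both Nfe2l2 probe sets, 3 of 4 Srxn1 probe sets and 1 of 3 Txnrd1 probe sets. It was negative for Hmox1 and 2 of 4 Gstm1 probe sets. By direction, 6 of 20 were positive, beside 3.08% of all probe sets, and 3 of 20 negative, beside 3.8%. The count of 9 fell to 5 without NIH3T3 clone 1 and to 4, 4 and 3 without B16F10 clones 1, 2 and 3, each leave-out also calling fewer of all probe sets (739 to 1195, against 1737).

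Hmox1 had the widest difference, -2.83 ± 0.57 (adjusted p = 0.025), with all 3 NIH3T3 arrays below their control and all 3 B16F10 arrays above theirs. Nfe2l2 (1416543_at) differed by 1.34 ± 0.19 (adjusted p = 0.00672) and Srxn1 (1426875_s_at) by 1.94 ± 0.31 (adjusted p = 0.00974). Both were called in 16 of 16 alternatives, and Hmox1 in 13 of 16. The other called probe sets held less often, Nfe2l2 1457117_at in 9 of 14, Srxn1 1425351_at in 10 of 15 and Srxn1 1451680_at in 8 of 15. Gstm1 (1448330_at) differed by -2.12 ± 0.36 (adjusted p = 0.0131, called in 14 of 15 alternatives). Its brightest probe set, 1416416_x_at, differed by -2.01 ± 0.45 (adjusted p = 0.0336), a call that held in only 9 of 16. Txnrd1 (1421529_a_at) differed by 1.15 ± 0.26 (adjusted p = 0.0378), a call that held in 8 of 16, and its other probe sets had 0.90 and 1.28 and were not called. Osgin1 went the same way in both lines, with a difference of 0.21 ± 0.36 (adjusted p = 0.777), and Gclc had 0.11 ± 0.42 (adjusted p = 0.907). Intervals of this width do not show that the changes were equal.

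**Figure D3:**
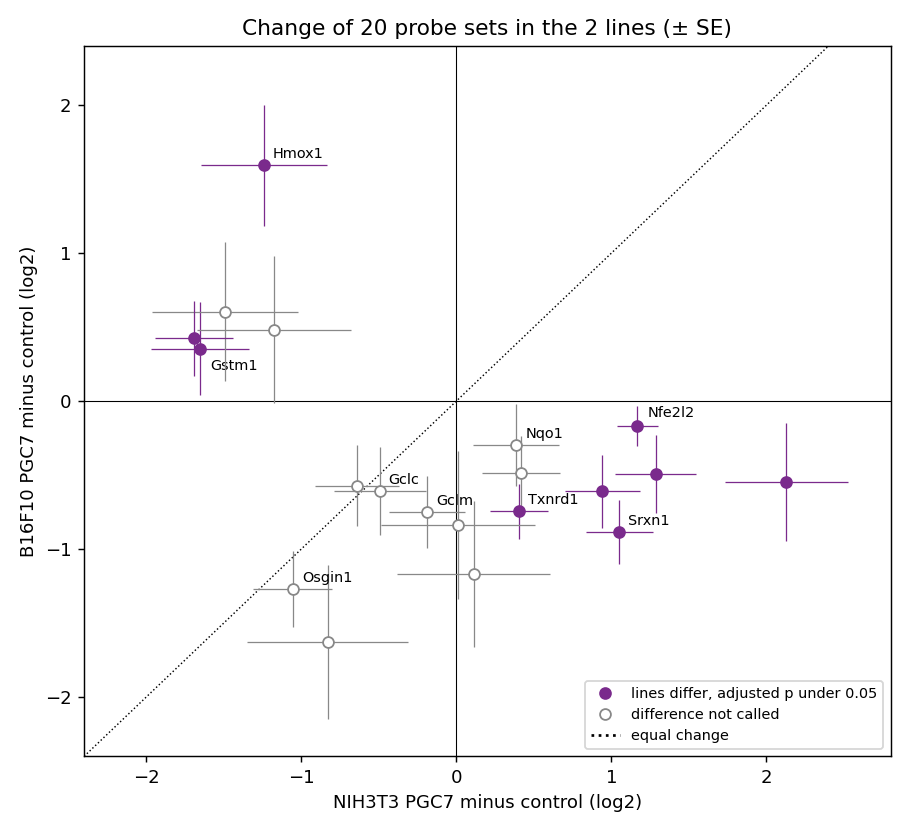
Log2 change with PGC7 in NIH3T3 (horizontal) against that in B16F10 (vertical) for the 20 probe sets, with bars of ± SE; filled points differ between the lines (adjusted p under 0.05), names stand beside the brightest probe set of each gene, and the dotted line marks equal change. Hmox1 and Gstm1 lie at the upper left, Nfe2l2 and Srxn1 at the lower right, and Osgin1 near the dotted line.

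Signals of the members also differed between the lines themselves. Between the B16F10 PGC7 and NIH3T3 PGC7 arrays, 18 of 20 probe sets were called, 3 higher and 15 lower in B16F10, where 71.1% of all tested probe sets were called, 30.9% higher and 40.2% lower. Members dim in B16F10 passed the filter through their NIH3T3 signal alone, so their lower reading in B16F10 was partly set by the filter. With the filter required in both lines, 15 of 16 members were called, 3 higher and 12 lower, and 49.2% of all calls were higher in B16F10. With the values as deposited the split was 8 higher and 8 lower among 19 tested members, and 87.2% of all calls were higher in B16F10, against 43.5% after scaling. Srxn1 (1426875_s_at) averaged 320 ± 62.3 in B16F10 PGC7 and 3478 ± 269 in NIH3T3 PGC7 (SD, n = 3 each), a log2 difference of -3.42 ± 0.15 (adjusted p = 2.85e-07). Nqo1 averaged 122 ± 6.77 and 1761 ± 441 in the same order (-3.73 ± 0.20, adjusted p = 6.97e-07). Gstm1 (1448330_at) averaged 474 ± 18.7 in B16F10 PGC7 and 2286 ± 563 in NIH3T3 PGC7 (-2.22 ± 0.18). Hmox1 was higher in B16F10 PGC7, at 1382 ± 266 against 435 ± 162 (1.71 ± 0.29, adjusted p = 0.000708).

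These 4 directions were the same under each other scaling, with the values as deposited giving -1.81 for Srxn1, -2.12 for Nqo1, -0.61 for Gstm1 and 3.26 for Hmox1, and the spike scaling 0.80 for Hmox1. The sizes depend on the scaling, because the B16F10 files were already at a trimmed mean of 500 when deposited and the NIH3T3 files at 143 to 189. Nfe2l2 (1416543_at) was lower in B16F10 PGC7 (-1.31), and so it was with quantile normalization (-1.41) and spike scaling (-2.23). With the values as deposited, not scaled between the lines, it was 0.31 higher, where the median over all tested probe sets was 1.42. Its direction thus depends on whether the arrays are scaled. Gclm, Gclc (1424296_at) and Txnrd1 (1421529_a_at) changed sign in the same way, and Osgin1 did so under the spike scaling (0.64 and -0.24). The probe sets of Txnrd1 disagreed on this difference, at -0.22, -3.91 and -2.90, and so did those of Gclc, at -0.63 and 0.65.

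A wider list of 96 genes of the Nrf2 system, written from textbook knowledge, had 78 genes with a tested probe set. In NIH3T3, 10 of the 78 rose and 7 fell, the other 61 not being called, where 12.8% of all tested probe sets were called. The median log2 change was -0.01. In B16F10, 1 of 78 was called, beside 1.19% of all probe sets.

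In NIH3T3, by the brightest probe set of each gene, calls went in both directions in 3 of the list's groups. These were the regulators, the quinone, carbonyl and conjugation enzymes and the glutathione transferases. Other probe sets added calls against the direction of their group, for Fech, Me1 and Gsr, given below, and for Abcc5. Abcc5, an exporter gene, fell at 1 of its 8 probe sets (-1.16, adjusted p = 0.0219), beside the rise of Abcc4. Sod2 fell at 1 of its 4 probe sets (-0.91, adjusted p = 0.012), in a group with no call at the brightest probe sets. Tkt rose at 1 of its 3 (0.45, adjusted p = 0.0233), as Taldo1 did in the same group. Of 12 regulators, Mafg, a small Maf partner of Nrf2, had 1569, 1721 and 1492 in clone 1, clone 2 and the uncloned population against 770 in the control, and rose by 1.04 ± 0.14 (adjusted p = 0.00232). All 3 arrays were above the control, and both Mafg probe sets rose. Bach2, a transcriptional repressor, fell (-2.56), with 1 of its 3 probe sets at 0.35. Keap1 had 0.02 and Bach1 0.48 (adjusted p = 0.116), and Mafk, another small Maf, had -0.36, all uncalled.

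Of all tested probe sets 6.47% rose and 6.32% fell, and the counts by group are read beside these shares. Of 7 haem and iron genes, 2 rose, among them Slc40a1, which codes for the iron exporter ferroportin. It had 1828, 1944 and 2139 in the 3 PGC7 arrays against 455 in the control, and rose by 2.09 ± 0.26 (adjusted p = 0.00168). Fech, in the same group, was not called at its brightest probe set but was called lower at 2 of its 3 probe sets. These had -0.86 (adjusted p = 0.00911) and -0.77 (adjusted p = 0.0365). Of 12 quinone, carbonyl and conjugation enzymes, 2 rose and 1 fell. Ephx1, the microsomal epoxide hydrolase gene, had 616, 475 and 939 against 7700 and fell by 3.55 on the log2 scale (-3.55 ± 0.32, adjusted p = 0.000433). Aldh3a1, an aldehyde dehydrogenase gene, had 3060, 3167 and 2473 against 954 and rose (1.59 ± 0.29), and Nqo2, a second quinone reductase gene, rose by 1.21 at its brightest probe set, the other two having 0.85 and 0.19 and not being called.

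Of 17 glutathione transferases, 2 rose and 2 fell, with Gstt1 at -2.71, Gstm2 at -2.17 and the microsomal Mgst3 at 0.91. Gpx1, a glutathione peroxidase gene, fell by 0.83 on the log2 scale. Taldo1, an enzyme of the pentose phosphate pathway, rose by 1.14, and Abcc4, an exporter gene, by 1.20. Gss had -0.01, Gsr 0.48 (adjusted p = 0.0727), Txn1 0.34 (adjusted p = 0.0714), Me1 -0.56 (adjusted p = 0.0562) and Cbr3 -0.13, all uncalled at their brightest probe sets. The second probe sets of Gsr and Me1 were called in the same directions, at 0.92 (adjusted p = 0.0123) and -1.52 (adjusted p = 0.0018). The calls of Abcc4, Bach2, Gstm2, Gstt1 and Taldo1 each held in 8 or 9 of 15 or 16 alternatives. G6pdx had no probe set of its own symbol alone.

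In B16F10, Slc7a11, the cystine transporter gene that feeds glutathione synthesis, had 148, 171 and 172 in clones 1, 2 and 3 against 16.7 in the control. It rose by 2.74 ± 0.42 (adjusted p = 0.0228), all 3 clones lying above the control, whose signal was below the filter threshold. The call held in 11 of 16 alternatives and was lost without each B16F10 clone in turn (adjusted p = 0.0902, 0.0789 and 0.0998 without clones 1, 2 and 3), without the filter and without the intensity trend (adjusted p = 0.0666). Its change in NIH3T3 was 0.79 (adjusted p = 0.256), and the difference between the lines, -1.95, was not called (adjusted p = 0.0893). Of the 78 genes, 12 differed between the lines, 7 with a more positive change in NIH3T3 and 5 with a more positive one in B16F10, where 6.88% of all tested probe sets were called, 3.08% positive and 3.8% negative. Gsr, the glutathione reductase gene, was among them at 0.93 (adjusted p = 0.0387). That is its brightest probe set, with 0.48 in NIH3T3 and -0.45 in B16F10, called in neither line. The second had 0.92 and 0.21, so the probe sets disagreed in direction in B16F10.

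**Figure D4:**
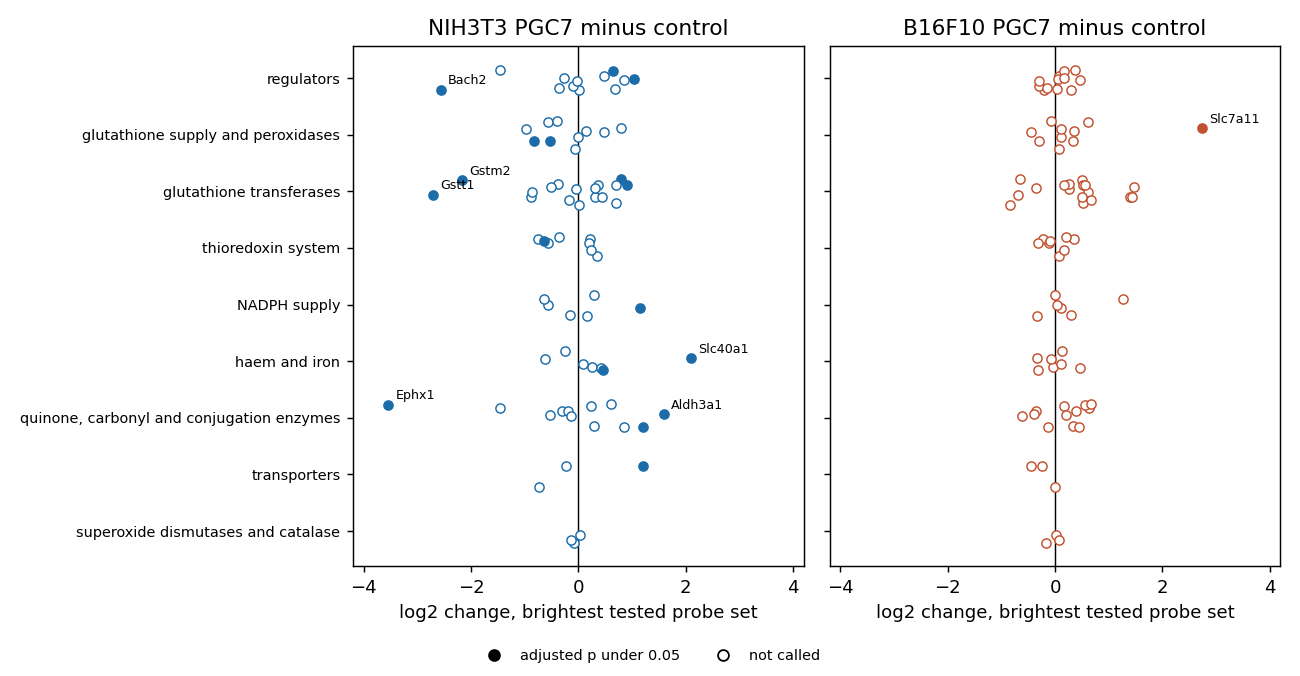
Log2 change with PGC7 in NIH3T3 and in B16F10 for the genes of the wider Nrf2 list, by group; filled points were called (adjusted p under 0.05). In NIH3T3 17 of 78 genes are filled, from Ephx1 at -3.55 to Slc40a1 at 2.09, and in B16F10 Slc7a11 alone is.

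Genes whose differences from control were nearest to a member's over the 6 PGC7 arrays were found by the root mean square difference in log2 units, for the 3 members with the largest change. Nearest to Hmox1 were Rora (0.23), Cnrip1 (0.27) and Cyp4v3 (0.28), where Hmox1's own root mean square change was 1.48. Nearest to Gstm1 were Ptprk (0.17), Cyb5a (0.17) and Naalad2 (0.18), and nearest to Osgin1 were Dancr (0.18), Sparc (0.21) and Tmem158 (0.21). The 3 arrays of a line share 1 control, so likeness rests largely on 2 controls.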

How the data were processed

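RNA of 8 mouse cell line samples was measured on Affymetrix arrays. The deposited values are linear intensities, 1 for each of 45101 probe sets, made with MAS5 per the submitters' processing notes, from 6 ug of total RNA per the labels' protocols. The deposited trimmed means were 143 to 189 in NIH3T3 and 500.003 in B16F10, so each array was scaled to a 2% trimmed mean of 500. From there log2(signal + 9) was taken. A probe set was tested if its mean log2 value reached the median of all values (a signal of 49.3) in at least 1 line, which left 25236 after 64 control and 19801 dim probe sets were dropped. limma 3.58.1 in R 4.3.3 fitted 4 group means (eBayes with trend, two-sided, Benjamini-Hochberg over all tested probe sets), and for both lines together an additive model with line. The fit was tested on simulated data. The number of arrays limits the precision.

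Groups came from titles. A gene is represented by its probe set with the highest mean signal. Named genes were all members, the wider-list genes called within a line (up to the 12 largest per comparison), 11 wider-list genes named in any case, Dppa3, and the 3 genes nearest to each of 3 members. Members, lists and tests were chosen with earlier results of these data known. Promoter windows are RefSeq sequences of GRCm38.p6. Alternatives covered scaling, pseudocount, filter, samples in the fit, variance prior, probe set averaging and leaving out each PGC7 array, and, added later, a replicate block between the lines.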

Additional observations from a re-analysis of the deposited data

Results flagged for a closer look

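For 9 member probe sets the change with PGC7 differed between the lines by the interaction test in limma, given as the NIH3T3 change minus the B16F10 change in log2 units. Nfe2l2 had 1.34 at 1416543_at and 2.68 at 1457117_at. Srxn1 had 1.94 at 1426875_s_at, 1.78 at 1425351_at and 1.55 at 1451680_at. Txnrd1 had 1.15 at 1421529_a_at. Hmox1 had -2.83 at 1448239_at. Gstm1 had -2.01 at 1416416_x_at and -2.12 at 1448330_at. Each rests on 1 control array a line.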

How the results depend on the processing

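Of 949 recomputed values for 60 member results, 850 kept direction and side of the threshold, 53 lost a call, 34 gained one and 12 changed sign. The cause was not tested in any case. For PGC7 against control no paired analysis was possible because each control group has 1 array. Between the lines, titles number clones 1 and 2 in both, though nothing says that a number marks a shared source. A replicate block on these 4 arrays, chosen after seeing the data, called 19 members, 17813 of all probe sets and 64 wider-list genes, against 18, 17996 and 64 without it. Across 25236 probe sets the clone 1 minus clone 2 differences of the lines had a correlation of -0.05.

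With the values as deposited, 1045 probe sets differed in their change between the lines (1737 in the chosen setting), 7 wider-list genes did (12), and 18 probe sets were called across both lines (39). With poly-A spike scaling, B16F10 had 9 member calls (0), 2295 in all (300) and 8 in the wider list (1), and the difference had 6689 and 30. That scaling moved the median of all changes to 0.28 in NIH3T3 and -0.48 in B16F10. The share of called probe sets that were higher was 50.6% in NIH3T3, 36.7% as deposited and 81.4% with spikes, and in B16F10 77.7%, 86.7% and 6.01%. The arrays of a line alone gave 5, 1151 and 7 calls in NIH3T3 (8, 3229 and 17 for members, all probe sets and wider list) and 4, 2196 and 10 in B16F10. Without the intensity trend, NIH3T3 had 2127 and 7, B16F10 70 and 0, the difference 4 of the members (9), 934 and 5, and both lines 5. Without a filter, B16F10 had 177 and 0 and the difference 5 members. Filtering in both lines gave 1 member in B16F10, and 1 member and 103 probe sets across both lines. With 4 times the pseudocount, B16F10 had 1 member.

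Leaving out 1 PGC7 array at a time, member calls ranged from 6 to 11 in NIH3T3, 0 to 5 in B16F10, 3 to 11 for the difference, 14 to 19 between the lines and 0 to 0 across both. All calls ranged from 1999 to 6133, 59 to 1835, 739 to 4404, 15999 to 18618 and 5 to 32 in the same order, and wider-list calls from 10 to 37, 0 to 11, 4 to 27, 60 to 66 and 0 to 0. The highest counts came without the uncloned NIH3T3 array.

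The 12 sign changes were all in uncalled values. In NIH3T3, Gclm 1418627_at had 0.18 with spikes. Gclm 1439050_at had -0.11 as deposited and -0.28 to 0.47 with 1 NIH3T3 array left out, the lowest without clone 1 (-0.16 without clone 2). Txnrd1 1424487_x_at had -0.013 as deposited and -0.14 to 0.41 with 1 left out, the lowest without clone 1. For the difference, Gclc 1424296_at had -0.0080 as deposited and -0.088 to 0.32 with 1 array left out, the lowest without NIH3T3 clone 1, and Gclc 1455959_s_at had 0.83 with spikes and 0.10 without the uncloned array. In B16F10 with spikes, Gstm1 had -0.18 at 1416416_x_at and -0.11 at 1448330_at.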
